A study of Mus musculus with 9 samples.

Results

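Immediate early genes are the genes that a cell transcribes first when a growth signal, cytokine or stress reaches it, using transcription factors that are already present and need no new protein. Many of their products are themselves transcription factors or brakes on the signal, and their mRNAs are short-lived because AU-rich stretches in the 3′ UTR direct their decay. In liver they are best known from the first hours after partial hepatectomy. The 10 genes described here were taken by symbol from the deposited expression table, which lists 51912 genes. They are Fos, Fosb, Jun and Junb, which form the AP-1 transcription factor, Egr1, Atf3 and Ier2, and the feedback regulators Dusp1, Btg2 and Zfp36. The set is defined by these symbols, although earlier results of these data were known when it was drawn up. The filter on low values was passed by 9 of the 10, Fosb being the exception, and Egr1 passed it only through 1 apoC-III ASO liver.

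Liver RNA was sequenced after a fast, from C57Bl/6 background mice of the genotype Apoe-/- Ndst1 f/f Alb-Cre+. By genotype all animals lacked apoE and, in hepatocytes, where Alb-Cre is active, the heparan sulfate enzyme Ndst1. One group of 5 livers came from mice given an antisense oligonucleotide (ASO) against Apoc3, and the other group of 4 from mice given a control ASO, at 50 mg/kg per week for 8 weeks by intraperitoneal injection. The labels give neither age nor sex, and they number the livers without naming a litter or cage, so p-values measure only the spread between these samples, which may be technical. Because a single small cytoplasmic RNA, 7SL, took 64.0 to 83.6% of the deposited TPM (transcript abundance per length, relative to the library), levels are given as rescaled TPM, in which the nuclear protein-coding genes of each liver sum to 1000000 and are then divided by a median-of-ratios factor. TPM keeps no depth, so the depth behind these values is unknown. Control ASO replicate 4 stood apart: its protein-coding genes took 1.94% of the deposited TPM against 3.03 to 8.64% in the other livers, and its log2 levels correlated with those of the other controls at r = 0.878 to 0.889, against 0.939 to 0.946 among them. The targeted gene behaved as its label says: Apoc3, which encodes the apolipoprotein, was at 456 ± 113 rescaled TPM (SD, n = 5) against 3622 ± 499 (n = 4), or -3.01 ± 0.23 (SE) in log2, with an adjusted p of 3.84e-04 (limma-trend, Benjamini-Hochberg). The deleted genes still had a level in every liver, at 23.5 to 67.2 rescaled TPM for Apoe and 4.86 to 11.7 for Ndst1, and with no liver of another genotype analysed here these levels do not check the deletions.

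The fit covered 11976 genes with a mean of at least 1 rescaled TPM. A gene was called when its adjusted p was below 0.05 and its change above 1.5-fold. With limma-trend, no gene was called higher (0.0% of those tested, 0 of 9 members) and 2 were called lower (0.0167%, 0 of 9 members), Apoc3 and Anpep. At an unadjusted p under 0.05, 3 of the 9 members were higher (Dusp1, Fos and Zfp36) against 358 of all tested genes (2.99%), and none was lower against 308 (2.57%). All 9 members had a fitted log2 fold change above 0, compared with 49.8% of all tested genes, and 3 were above 1.5-fold compared with 5.93%. The count of 9 includes Egr1: with apoC-III ASO replicate 1 left out and no filter on low values, an alternative added after seeing the data, Egr1 was at -0.10 and the other 9 of all 10 members stayed above 0. The median log2 fold change was 0.54 over the 9 members and -0.0013 over all tested genes. Without control ASO replicate 4 the members' median was 0.68, with Dusp1 and Fos higher at an unadjusted p under 0.05. Without that liver and apoC-III ASO replicate 1 it was 0.50 over 8 members. The members higher at such a p were then Dusp1 and Atf3, and no longer Fos. No member separated the 2 groups without overlap, where 0.919% of all genes did so with higher values and 0.91% with lower values in the apoC-III ASO livers. In whole liver, fewer cells of a type and less RNA per cell cannot be told apart.

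The promoters of Dusp1, Fos and Zfp36 are shown because these were the 3 members with an unadjusted p under 0.05. Each line is the 250 bases before the RefSeq start on the gene's own strand (RefSeq, GRCm38.p6), with matches to the searched motifs in capitals. The Dusp1 window lies at chr17:26508473-26508722 on the minus strand, the Fos window at chr12:85473640-85473889 on the plus strand, and the Zfp36 window at chr7:28379229-28379478 on the minus strand.
Dusp1: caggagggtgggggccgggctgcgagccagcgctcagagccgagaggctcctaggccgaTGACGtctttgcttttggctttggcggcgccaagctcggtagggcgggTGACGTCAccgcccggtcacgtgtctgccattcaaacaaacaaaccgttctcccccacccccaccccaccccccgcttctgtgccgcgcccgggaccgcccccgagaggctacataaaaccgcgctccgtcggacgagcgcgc
Fos: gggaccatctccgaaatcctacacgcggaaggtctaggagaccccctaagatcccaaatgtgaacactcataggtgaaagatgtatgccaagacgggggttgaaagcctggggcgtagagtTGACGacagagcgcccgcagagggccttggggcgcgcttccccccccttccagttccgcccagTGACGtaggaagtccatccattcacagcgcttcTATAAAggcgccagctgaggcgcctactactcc
Zfp36: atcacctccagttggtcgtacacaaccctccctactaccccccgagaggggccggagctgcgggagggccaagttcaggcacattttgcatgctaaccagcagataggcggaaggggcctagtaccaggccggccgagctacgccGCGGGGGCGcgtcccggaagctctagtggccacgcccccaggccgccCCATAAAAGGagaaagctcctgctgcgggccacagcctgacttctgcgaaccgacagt

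The motifs were searched on both strands of these windows. The full cAMP response element TGACGTCA, the site of CREB and ATF factors, began 143 bases before the start of Dusp1 and 166 bases before that of Btg2, and 1.55% of 32851 promoters of the same length held it. Its half-site TGACG, which also lies within the full element, was found in 6 of the 8 members in the promoter table, Fos, Fosb, Junb, Atf3, Dusp1 and Btg2, and in 17.8% of all promoters. Zfp36 held a CArG box, the site of serum response factor, 58 bases before its start (1.47% of all promoters). The EGR sites searched, GCGTGGGCG and GCGGGGGCG, were matched 105 bases before the start of Zfp36 and 50 before that of Fosb (3.06% of all promoters). The AP-1 site TGAGTCA, held by 4.46% of all promoters, was matched in none of the 8. TATAAA, held by 12.4%, was matched in Fos. Egr1 and Ier2 had no entry in the promoter table, and sites more than 250 bases before a start were not searched. The windows of the 8 members were 58.4 to 73.2% G or C, all above the median of 52.4% over all promoters. The shares of promoters given here were not matched for that content.

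The members have few exons. All 10 have 4 exons or fewer in the coding transcript chosen for each (GENCODE M21, the longest coding part), as do 33.9% of 21783 protein-coding genes, and Jun, Junb and Ier2 have 1 exon. Their 3′ UTRs hold between 0 (Ier2) and 5 (Btg2) copies of the pentamer ATTTA, the core of AU-rich elements, against a median of 1 over all genes. The longer nonamer TTATTTATT, the form that the Zfp36 protein binds best in RNA, was found in the 3′ UTR of Dusp1, Fos and Zfp36 itself, and in 6.55% of all genes. The nonamer sites are shown with their flanking bases because the 3 members that hold them are the 3 with an unadjusted limma p under 0.05. By exact permutation these 3 were each at p = 0.0635, while Junb, with 0 nonamers, was at p = 0.0476. Whether the nonamer bears on the differences between groups was not tested. The nonamer is in capitals, and of the 2 copies in Dusp1 the one nearer the stop codon is given.
Dusp1: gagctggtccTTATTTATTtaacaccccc
Fos: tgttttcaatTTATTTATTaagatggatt
Zfp36: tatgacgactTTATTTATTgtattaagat

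**Figure D1:**
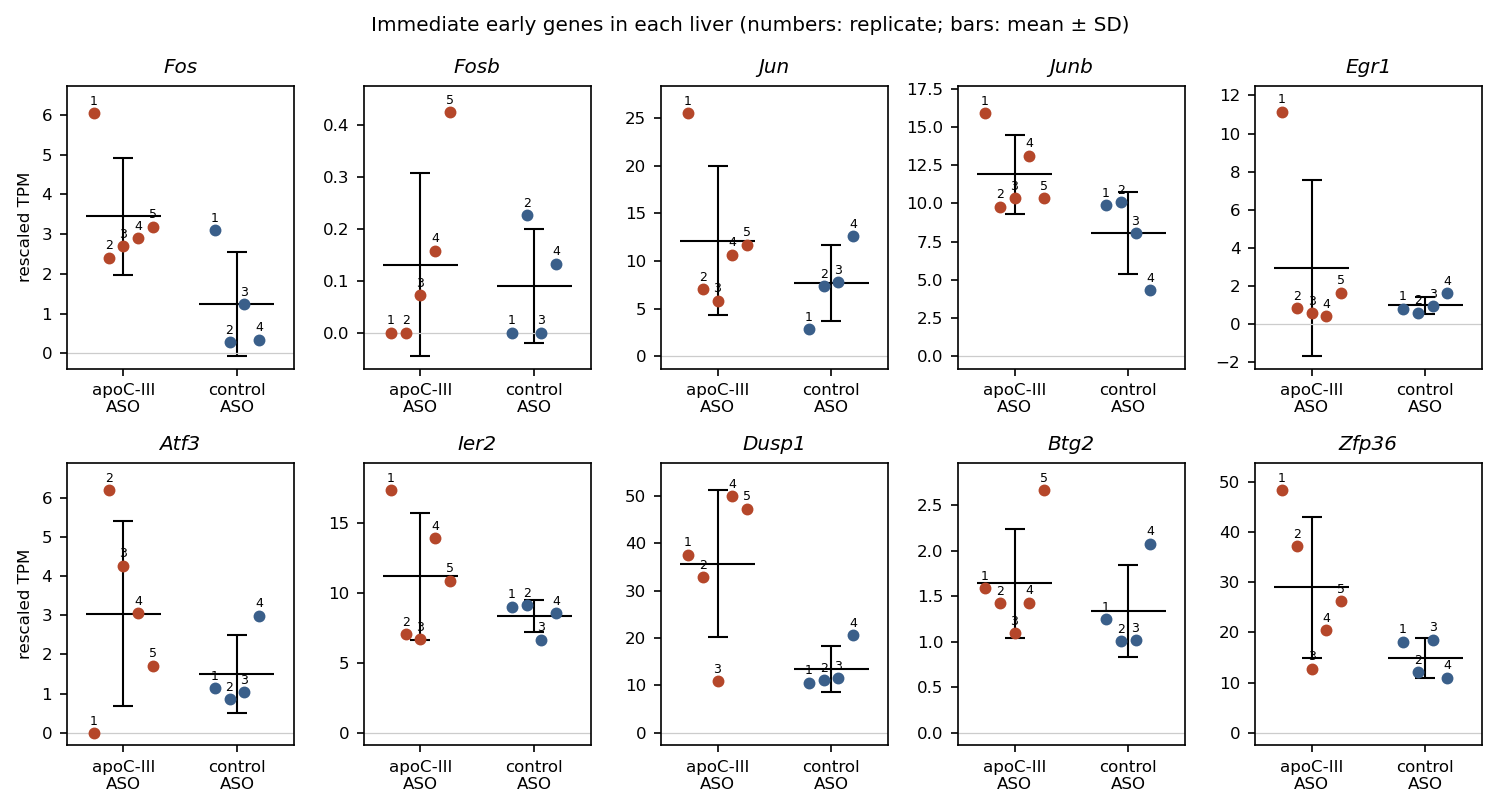
Rescaled TPM (y axis, linear) of the 10 immediate early genes in each liver, with apoC-III ASO livers on the left and control ASO livers on the right of each panel. Points carry the replicate number and bars give the mean ± SD. ApoC-III ASO replicate 1 is the highest point for Fos, Jun, Junb, Egr1, Ier2 and Zfp36, and Dusp1 is high in 4 of the 5 apoC-III ASO livers.

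Among the feedback regulators, Dusp1 encodes a phosphatase that switches off MAP kinases. Its rescaled TPM in apoC-III ASO replicates 1 to 5 was 37.6, 32.9, 10.9, 49.9 and 47.3, and in control ASO replicates 1 to 4 it was 10.6, 11.2, 11.5 and 20.6. Replicate 3 of the treated livers sat among the controls and the other 4 were above every control liver. The means were 35.7 ± 15.5 (SD, n = 5) and 13.5 ± 4.75 (n = 4), a difference of 1.23 ± 0.40 in log2 (SE, 95% confidence interval 0.35 to 2.11, limma-trend adjusted p = 0.863). An exact permutation test of the log2 values over all assignments of livers gave p = 0.0635 (two-sided), where the smallest possible p is 0.0159. Dusp1 is among the genes that the study's heat map of these same livers shows as changed, so its direction is not independent evidence. That map holds genes with an adjusted p below 0.05 in the study's own test of read counts (DESeq2). The test used here, on rescaled TPM, did not call Dusp1. It overlaps Ergic1 and a processed pseudogene on the other strand.

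Zfp36 encodes tristetraprolin, which binds AU-rich elements and hastens mRNA decay. In apoC-III ASO replicates 1 to 5 it was at 48.3, 37.1, 12.8, 20.4 and 26.2 rescaled TPM, and it was at 18.2, 12.1, 18.5 and 11.0 in the control livers. Again 4 treated livers exceeded every control and replicate 3 did not. The fitted change was 0.81 ± 0.35 in log2 (SE, limma-trend adjusted p = 0.878), and the exact permutation p was 0.0635. Without replicate 1 of the treated livers the log2 fold change was 0.60 with an unadjusted limma p of 0.0995. The unadjusted p was also above 0.05 without treated replicate 2 or 5 or control replicate 2 or 4, reaching 0.102 at most. Zfp36 overlaps an antisense gene, Gm44710.

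Btg2, an antiproliferative cofactor of mRNA deadenylation, ranged from 1.09 to 2.67 rescaled TPM in the apoC-III ASO livers and from 1.01 to 2.08 in the controls. Treated replicate 5 was the highest of all livers, and the other 4 treated livers lay within the control range. Its fitted change was 0.17 ± 0.26 in log2 (SE, limma-trend adjusted p = 0.965), with 0.046 without treated replicate 5 and 0.31 without control replicate 4.

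Of the AP-1 subunits, Fos showed the largest difference. Its rescaled TPM was 6.04, 2.41, 2.70, 2.90 and 3.18 in the apoC-III ASO livers, in replicate order, and 3.09, 0.273, 1.23 and 0.347 in control ASO replicates 1 to 4. All treated livers were above 3 of the controls, and control replicate 1 fell inside the treated range. Control replicates 2 and 4 were at 0.0170 and 0.00330 TPM as deposited, levels so low that their precision is unknown without counts. The means were 3.45 ± 1.48 (SD, n = 5) and 1.24 ± 1.31 (n = 4), the log2 fold change on the rescaled TPM + 1 scale was 1.11 ± 0.38 (SE, adjusted p = 0.863, limma-trend), and the exact permutation p was 0.0635. With both apoC-III ASO replicate 1 and control ASO replicate 4 left out, an alternative added after seeing the data, it was 0.74 with an unadjusted limma p of 0.0819. The size of the change depended on the value added before taking log2: with 0.1 in place of 1, over all livers, it was 1.87.

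Junb, a partner of Fos, was at 15.9, 9.79, 10.3, 13.1 and 10.3 rescaled TPM in the apoC-III ASO livers and at 9.89, 10.1, 8.05 and 4.31 in the controls. The groups overlapped by the lowest treated liver, and control replicate 4 was the lowest of all. The fitted change was 0.54 ± 0.27 in log2 (SE, limma-trend adjusted p = 0.882), and the exact permutation p was 0.0476. Without control replicate 4 it was 0.30.

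Jun, the other main AP-1 subunit, was at 25.5, 7.04, 5.83, 10.7 and 11.7 rescaled TPM in the apoC-III ASO livers and at 2.85, 7.39, 7.79 and 12.6 in the controls. Only replicate 1 of the treated livers lay above all controls. Its fitted change was 0.57 ± 0.43 in log2 (SE, limma-trend adjusted p = 0.912) and was 0.27 without that liver, 0.22 without control replicate 1 and 0.83 without control replicate 4. Jun overlaps the antisense gene Junos, and Junb overlaps Prdx2 on the other strand. For these as for Dusp1, Zfp36 and Atf3, the libraries were stranded, but whether the quantification used the strand is not given in the sources used here. Fosb was barely detected: it was listed at 0 in 4 of the 9 livers and reached 0.425 rescaled TPM at most, in apoC-III ASO replicate 5.

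Egr1, a zinc finger transcription factor induced by growth signals, depended most on a single liver. It was at 11.1, 0.849, 0.586, 0.425 and 1.65 rescaled TPM in the apoC-III ASO livers and at 0.814, 0.602, 0.938 and 1.62 in the controls. The means were 2.93 ± 4.62 (SD, n = 5) and 0.993 ± 0.438 (n = 4), but the medians were 0.849 and 0.876. The fitted change was 0.44 ± 0.55 in log2 (SE, limma-trend adjusted p = 0.954), and without apoC-III ASO replicate 1 Egr1 fell below the filter on low values. The other 4 treated livers averaged 0.878 ± 0.544 (SD, n = 4), below the control mean, and with no filter the log2 fold change without replicate 1 was -0.10.

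Atf3, a stress-induced repressor of the CREB and ATF family, went against the others in that liver. It was listed at 0 in apoC-III ASO replicate 1, the liver with the highest Fos, Jun, Junb, Egr1, Ier2 and Zfp36, and was at 6.19, 4.26, 3.05 and 1.72 rescaled TPM in replicates 2 to 5. The controls were at 1.15, 0.857, 1.03 and 2.99, so 3 treated livers were above every control. The fitted change was 0.49 ± 0.51 in log2 (SE, limma-trend adjusted p = 0.945) with all livers. Without replicate 1 it was 0.92, with an unadjusted limma p of 0.0312 and an adjusted p of 0.906. Without treated replicate 2 it was 0.21, and without treated replicate 3 it was 0.32. Atf3 overlaps Gm24748, a small RNA gene on the other strand.

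Ier2, a nuclear protein of the early growth response, was at 17.4, 7.07, 6.71, 13.9 and 10.9 rescaled TPM in the apoC-III ASO livers against 9.05, 9.14, 6.68 and 8.56 in the controls. Treated replicates 1, 4 and 5 lay above the controls and replicates 2 and 3 within their range. The fitted change was 0.31 ± 0.29 in log2 (SE, limma-trend adjusted p = 0.941), and was 0.14 without treated replicate 1.

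**Figure D2:**
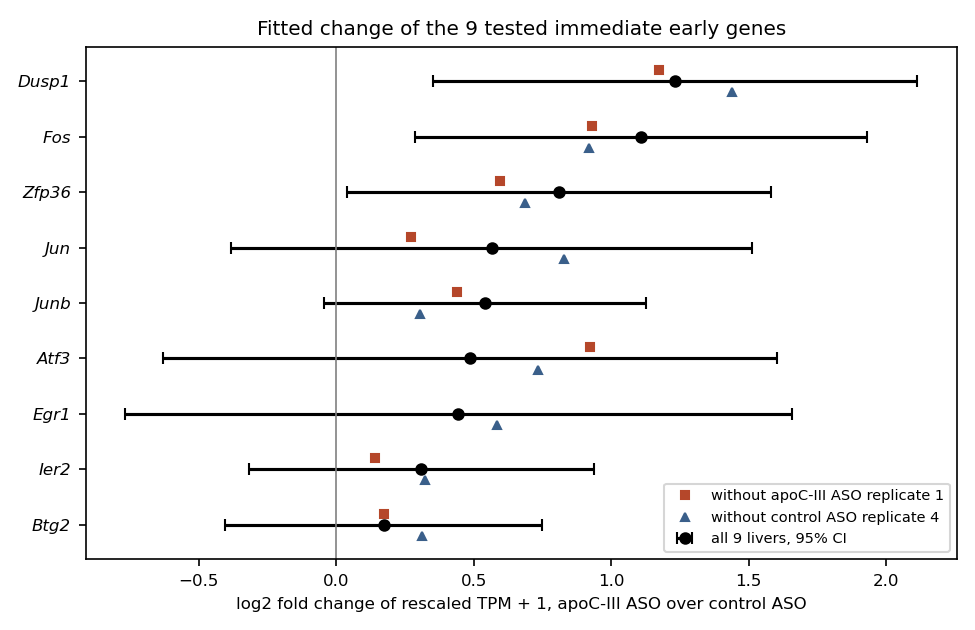
Fitted log2 fold change of rescaled TPM + 1, apoC-III ASO over control ASO (x axis), for the 9 tested members (y axis), with circles and bars giving the estimate and 95% confidence interval over 9 livers, squares the estimate without apoC-III ASO replicate 1 and triangles the estimate without control ASO replicate 4. All estimates drawn lie above 0, Egr1 has no square because it fell below the filter without that liver (-0.10 with no filter), and only the intervals of Dusp1, Fos and Zfp36 leave out 0.

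The members were therefore compared liver by liver. ApoC-III ASO replicate 1 had the highest level of 6 of the 9 tested members, while it was the highest liver for 10.2% of all tested genes. No control liver was the highest for any member, although control replicate 4 was the highest for 21.3% of all tested genes. The mean standardised log2 level over the 9 tested members was 1.21 in apoC-III ASO replicate 1, 0.64 in replicate 5, 0.45 in replicate 4, 0.23 in replicate 2 and -0.41 in replicate 3. The controls ranged from -0.72 to -0.33, and replicate 3 of the treated livers was within that range.

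Co-variation between livers was measured on log2(rescaled TPM + 1) over the 9 livers for the 36 pairs of the 9 tested members. Pearson's r was above 0 in 29 pairs and above 0.5 in 14, with a median of 0.41. Over all pairs of the tested genes, 49.97% of r values were above 0 and 11.2% above 0.5. The pairs share genes and the livers share 2 treatments, so these counts are a description and not a test. For deviations from the group means, which leave out the difference between treatments, 22 pairs were above 0 and 9 above 0.5, with a median of 0.29.

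Fos with Junb gave r = 0.76 (exact permutation p = 0.014, adjusted over 36 pairs p = 0.201) and Spearman's rho = 0.72 (exact p = 0.0369, adjusted p = 0.342). Leaving out the 2 livers farthest from the median of Fos, control replicates 2 and 4, gave r = 0.89, and the deviations from the group means gave r = 0.57. Fos with Zfp36 also gave r = 0.76 (exact permutation p = 0.019), with r = 0.57 without the same 2 livers and 0.58 within groups. These 2 pairs kept a positive r in each of the recalculations made. That was not particular to them: among other pairs, Jun with Egr1, Jun with Dusp1 and Dusp1 with Btg2 did so too.

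Jun with Egr1 gave r = 0.76 (exact permutation p = 0.021) and 0.42 without apoC-III ASO replicate 1. Pairs with Egr1 moved in both directions when that liver was left out. The r of Egr1 fell from 0.64 to -0.08 with Ier2 and from 0.63 to 0.07 with Zfp36, but rose from 0.35 to 0.80 with Btg2, and 4 of its 7 positive values stayed above 0. Over all 36 pairs, 26 were above 0 without that liver and the median r was 0.24. Dusp1 correlated with Jun, Ier2, Btg2 and Zfp36 at r = 0.66, 0.66, 0.69 and 0.65, and at 0.64, 0.64, 0.69 and 0.61 without replicate 1. No pair passed correction over the 36 pairs, with a lowest adjusted p of 0.201 for Pearson's r and 0.342 for Spearman's rho.

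Atf3 stood apart. Of its 8 pairs, 2 had r above 0, with a median of -0.29, whereas 27 of the other 28 pairs were above 0 with a median of 0.50. Without apoC-III ASO replicate 1, where Atf3 was listed at 0, 5 of its 8 pairs were above 0. For deviations from the group means, which were computed with that liver included, 0 of 8 were.

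**Figure D3:**
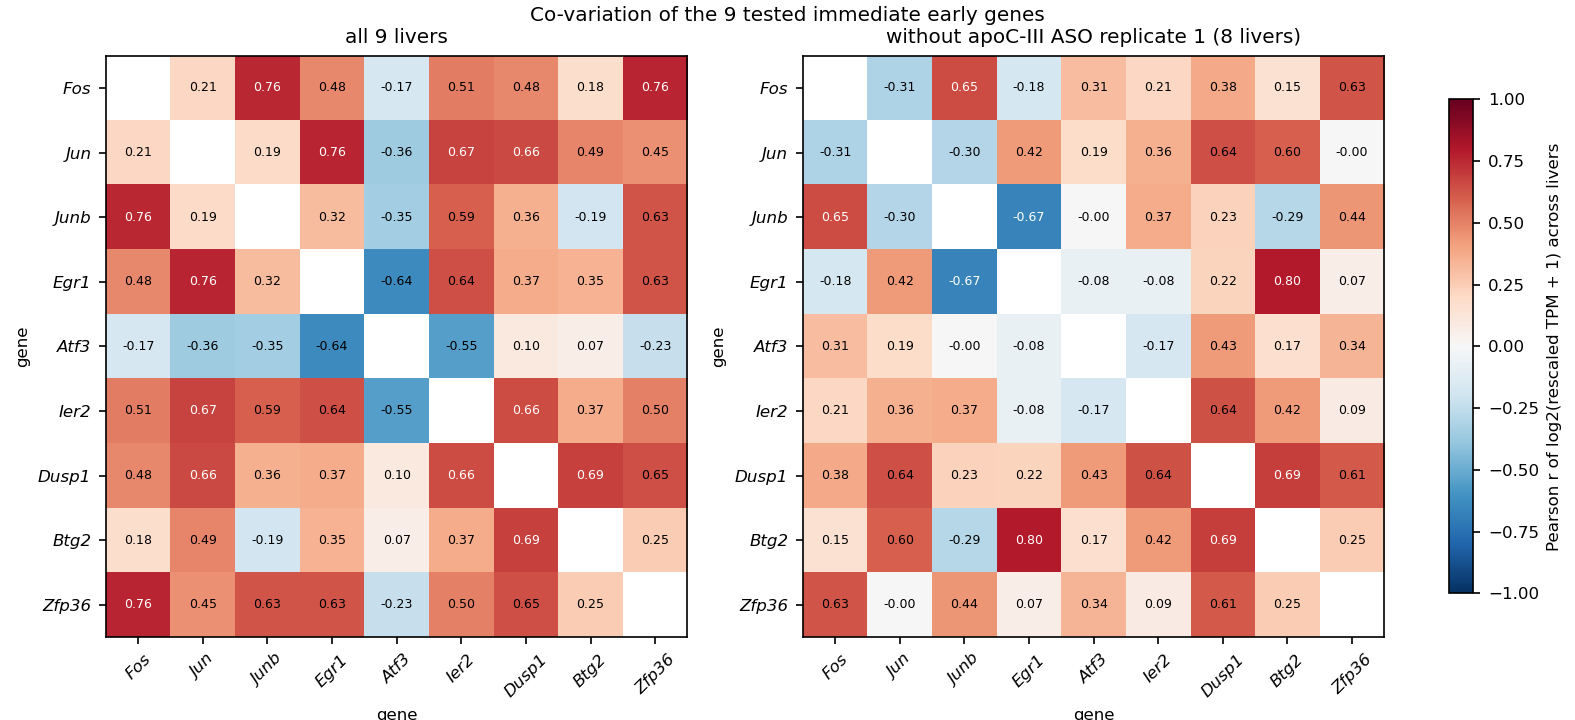
Pearson's r of log2(rescaled TPM + 1) for each pair of the 9 tested members (both axes list genes, colour and printed value give r), over all 9 livers on the left and over 8 livers without apoC-III ASO replicate 1 on the right. The Atf3 row is mostly negative on the left, 3 of the 7 positive values of Egr1 turn negative on the right while its r with Btg2 rises, and Dusp1 keeps r of 0.61 or more with Jun, Ier2, Btg2 and Zfp36 in both.

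The genes whose pattern over the 9 livers was most like the mean standardised level of the members were Ccdc189 (r = 0.92), Hist1h4i (0.90), Acot9 (0.89), Faap20 (0.89), Ttc21b (0.88), Commd2 (0.87), Sdhb (0.87) and Peli1 (0.85). They were picked as the highest r among all tested genes outside the list, which gives no test.

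Other early response genes were described next, from a list of 54 of which 41 were tested. Of the 41, 31 had a log2 fold change above 0, against 49.8% of all tested genes, and the median was 0.20. At an unadjusted p under 0.05, 4 were higher (2.99% of all tested genes) and 1 lower (2.57%), and none was called. Groups did not overlap, with higher values in the apoC-III ASO livers, for 0.919% of all tested genes. These shares also apply to the lists that follow. Zfp36l1, a relative of Zfp36 that also binds AU-rich elements, differed by 1.12 ± 0.24 in log2 (SE, limma-trend adjusted p = 0.644), with 48.0 to 81.2 rescaled TPM in the apoC-III ASO livers and 19.4 to 35.6 in the controls, and the groups did not overlap. Id3, a repressor of helix-loop-helix factors and another gene in the study's heat map, also did not overlap, with 14.9 to 43.5 against 8.39 to 14.3 (1.24 ± 0.34, adjusted p = 0.777). The other 3 were Nfil3 (0.96), Socs3 (1.85), a feedback inhibitor of cytokine signaling, and Ctgf (-1.37), a matricellular growth factor.

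Feedback genes outside the 10 were a list of which 17 were tested, 6 of them also counted among the other early response genes. Of the 17, 13 had a log2 fold change above 0, against 49.8% of all tested genes, with a median of 0.21. At an unadjusted p under 0.05, 4 were higher, against 2.99% of all tested genes. They were Zfp36l1, already counted in the list above, Dusp16, Btg3 and Btg1. Dusp16, a phosphatase of stress kinases, was at 20.6 to 39.9 rescaled TPM in the apoC-III ASO livers and at 16.1 to 18.8 in the controls (0.76 ± 0.25, adjusted p = 0.863, limma-trend). Like Zfp36l1, Dusp16 did not overlap between the groups, against 0.919% of all tested genes with higher values.

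Of 11 tested AP-1 partners, 3 are also counted among the other early response genes (Fosl2, Jund and Maff). Of the 11, 6 had a log2 fold change above 0, none reached an unadjusted p under 0.05 and the median was 0.053. Fosl2, Jund and Jdp2 had the smallest p of that list, with log2 fold changes of 0.43, 0.34 and -0.35. Of the 22 kinases and transcription factors upstream of the members, 17 were above 0, against 49.8% of all tested genes, with a median of 0.15. Mapk8, the stress kinase that phosphorylates Jun, was the sole one of the 22 without overlap, against 0.919% of all tested genes with higher values. It was at 23.3 to 40.7 against 12.4 to 23.3 rescaled TPM (0.74 ± 0.26, adjusted p = 0.863, limma-trend), so that its groups all but touch. Rps6ka5, a kinase of CREB and histone H3, had a log2 fold change of -0.95, and Mapk14 of 0.50.

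Glucocorticoid-responsive genes and clock genes formed the last lists. Of 13 glucocorticoid-responsive genes tested, 4 are also counted among the other early response genes. Of the 13, 8 were above 0, none reached an unadjusted p under 0.05 and the median was 0.079. The 3 with the smallest p were Zbtb16, Per1 and Klf9, at 0.40, -0.48 and 0.22. Of 14 clock genes, 2 of them (Nfil3 and Per1) also among the other early response genes, 4 were above 0 with a median of -0.24. Arntl, the core activator of the clock, reached 17.9, 11.2 and 31.3 rescaled TPM in apoC-III ASO replicates 1 to 3, but 0.749 and 2.78 in replicates 4 and 5, and 0.324 to 2.49 in the controls. Dbp, an output gene of the clock, showed the reverse, at 2.96, 22.5 and 2.74 in replicates 1 to 3, at 154 and 98.9 in replicates 4 and 5, and at 69.0 to 104 in the controls. Arntl and Dbp thus split the treated livers between replicates 1 to 3 and replicates 4 and 5. Id3 showed that split too, at 43.5, 37.4 and 41.1 in replicates 1 to 3 and 14.9 and 17.9 in the others. Btg1 did as well, at 12.2, 12.1 and 11.7 against 5.89 and 4.84, and so did Nfil3, at 11.4, 10.9 and 17.6 against 5.79 and 8.79. Dusp1 and Zfp36 did not, being within the control range in treated replicate 3 alone. Per2 and Per3 had log2 fold changes of -2.32 and -1.81. Per2 was at 3.39, 8.41 and 4.86 in treated replicates 1 to 3 and at 25.4 and 41.0 in replicates 4 and 5. Per3 was at 3.25, 7.09 and 1.51 against 36.5 and 34.0. Control replicate 4 was below the other controls in both, at 12.3 against 84.7 to 131 for Per2 and 10.8 against 43.1 to 67.2 for Per3. The part of the clock split in the members' differences was not tested.

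**Figure D4:**
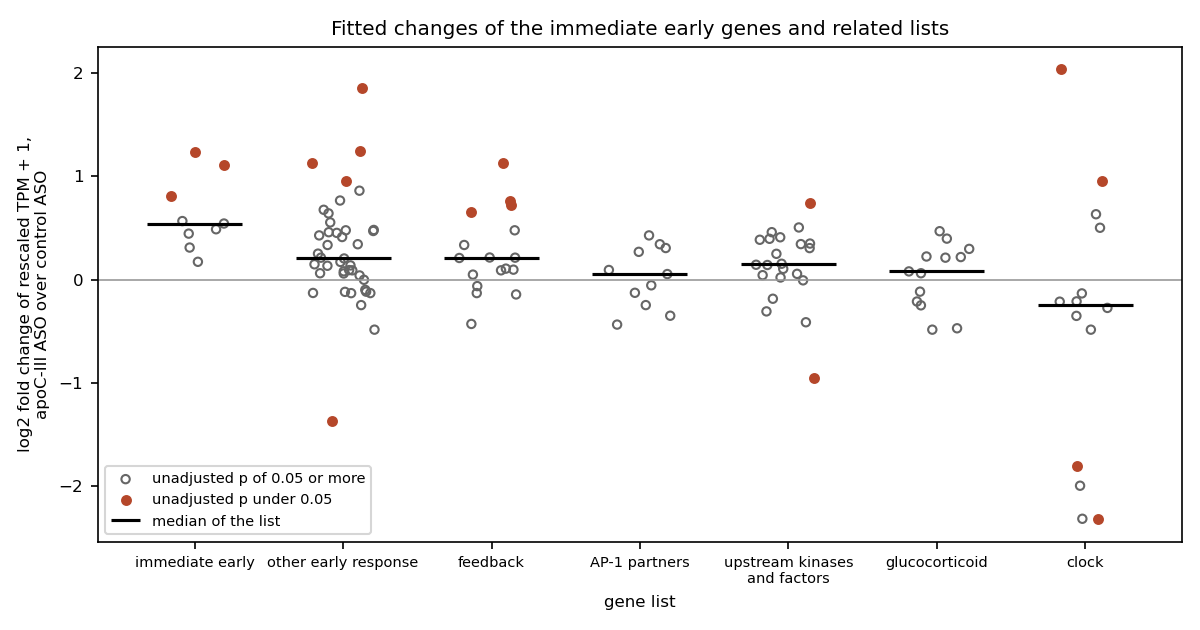
Fitted log2 fold change of rescaled TPM + 1, apoC-III ASO over control ASO (y axis), of every tested gene in 7 lists (x axis). Filled points had an unadjusted p under 0.05, open points did not, and the black line is the median of the list, which is 0.54 for the immediate early genes and 0.20 for the other early response genes.

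Cell type markers showed what else was in the livers. Summed hepatocyte markers, led by Alb, were at 27213 to 57806 rescaled TPM in the apoC-III ASO livers and 37111 to 52133 in the controls, with apoC-III ASO replicate 1 the highest. Macrophage markers, led by Cd5l, summed to 112 to 156 against 100.2 to 164. Of the 8 neutrophil markers, S100a8, Ly6g, Mpo, Elane and Ngp were listed at 0 in every liver, and the sum was at most 4.53, with S100a9 leading. Lymphocyte markers, led by Ptprc, summed to 11.2 to 24.1 against 14.9 to 25.1, and endothelial markers, led by Stab2, to 135 to 190 against 114 to 165. Stellate markers, led by Dcn, summed to 115 to 147 against 143 to 260. Cholangiocyte markers, led by Spp1, summed to 38.3 to 82.8 against 41.5 to 122, and erythroid markers, led by Hbb-bs, to 50.4 to 960 against 62.8 to 2209, the top value being control replicate 4. Fitted changes were below 0 for 8 of 9 tested hepatocyte markers (median log2 fold change -0.30), all 7 stellate, 4 of 5 erythroid, 2 of 3 cholangiocyte, 3 of 9 macrophage and 3 of 8 endothelial markers, 1 of 2 lymphocyte markers and the 1 neutrophil marker tested. The part of these markers in the members' differences was not tested.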

How the data were processed

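Total RNA of 9 livers was ribo-depleted and sequenced as stranded single-end libraries. The deposited table holds TPM, which the authors computed (kallisto 0.43.1 and GRCm38 in the submitters' processing notes); the study's methods name STAR and featureCounts, and no counts were analysed here. Of 51912 genes, 51633 matched GENCODE M21. Values of the 21780 nuclear genes that code for protein were scaled to sum to 1000000 in each liver, then divided by median-of-ratios factors normalised to a geometric mean of 1. Genes with a mean of at least 1 were tested with limma-trend 3.58.1 (R 4.3.3) on log2(value + 1), with Benjamini-Hochberg adjustment over all of them, after the script was tested on simulated data. Single genes were also tested by exact permutation (scipy 1.17.1). Named genes were the members, Apoc3, the 3 genes of each related list with the smallest p plus every called gene, the 8 genes most like the members and the largest marker of each cell type. Anpep, Btg1, Ctgf, Dbp, Per3 and Socs3 were named after their values were seen. The members and lists were chosen with earlier results of these data known. Promoters came from RefSeq (GRCm38.p6; 8 of 10 members matched) and transcripts from GENCODE M21. Alternatives covered scaling, pseudocount, filter, variance trend, array weights, single livers left out and a replicate block.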

Additional observations from a re-analysis of the deposited data

Results flagged for a closer look

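In each group of livers the gap between an extreme value and its neighbour was divided by the group's range, for 20 groups in all, of which chance flags about 1 in 20. In the apoC-III ASO livers, replicate 1 was far above the rest for Fos (gap ratio 0.786) and Egr1 (0.886). In the control livers, replicate 4 was far above the rest for Atf3 (0.864) and Dusp1 (0.907) in rescaled TPM. In TPM as deposited it was instead the lowest control for both. Atf3 was then at 0.0285 against 0.0533 to 0.0911, and Dusp1 at 0.196 against 0.601 to 0.842. The 2 livers concerned are the ones left out together in the added alternative.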

How the results depend on the processing

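No member was called under any of the 22 fitted alternatives, and the tested members other than Egr1 kept a log2 fold change above 0 in each, also relative to the median of all tested genes. Egr1 passed the filter only with apoC-III ASO replicate 1: without that liver and with no filter it was -0.10 and 1 gene was called lower. TPM as deposited, with 4936 genes and 2 members passing the filter, gave 5 genes called higher, 6 called lower, 2 of 2 members and 15 of 17 other early response genes above 0. Median-of-ratios factors over all genes gave 1 called higher, 1 called lower, 2 of 2 members and 14 of 16 other early response genes above 0. Protein-coding rescaling without factors moved the median of all genes to 0.41, with 88.0% of genes above 0, and TPM as deposited moved it to 0.11 (70.8%); without factors the members' median was 0.94, or 0.53 relative to all genes, the median of the other early response genes was 0.61, or 0.21 relative to all genes, 5 members were higher at an unadjusted p under 0.05, and 1 gene was called lower. No filter on low values and eBayes without a trend each gave 1 gene called lower. A mean of at least 5 left 5 members, 5 of them above 0. Leaving out single livers gave 1 to 3 genes called lower. The log2 fold change of Dusp1 ranged from 0.66 to 1.69 with an unadjusted p under 0.05 in 22 of 22 alternatives, Fos had such a p in 18 of 19 and Zfp36 in 11 of 22. On TPM as deposited the median r between members was 0.74, against 0.41. No r over all pairs of genes was computed on that scale, where the protein-coding share ran from 1.94 to 8.64% between livers. The 0.74 therefore cannot be read as closer co-variation of the members. Deviations of same-numbered livers correlated at r from 0.026 to 0.191, and those of differently numbered livers at r from -0.21 to 0.18. These values do not settle whether the numbers carry a pairing, and the labels name none. A fit with a replicate block gave 1 gene called higher and 2 members higher at an unadjusted p under 0.05. ApoC-III ASO replicate 5, which has no partner, adds nothing to that fit. Without counts, the precision of low members such as Fos, Egr1 and Fosb is unknown.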
